A study of Jaculus jaculus with 13 samples.

Results

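In all, 60 annotated genes of the kidney of the lesser Egyptian jerboa (Jaculus jaculus), a desert rodent, had a higher RNA level in rehydrated animals than in every control and every dehydrated animal, with a mean of at least 1.6 times control, while their mean after dehydration was within 15% of control. The annotation holds 24433 genes. The labelled samples were RNA from the whole left kidney of 13 wild-caught adult males. There were 4 control animals with water throughout (CM01, CM03, CM04 and CM06), 4 dehydrated animals kept without water for 11 days (DHM02, DHM03, DHM05 and DHM06) and 5 rehydrated animals (RHM01, RHM02, RHM04, RHM07 and RHM08) that went without water for 7 days and then drank freely for 3 days, by the sample labels. The study's methods give slightly different durations and state 5 sequenced animals per group. All groups ate dry food and had been caught in the wild, so their exact ages are unknown.

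Members were chosen by their level in counts per 1000000 (CPM), which is a gene's count divided by the total count of that animal and scaled to that number. A gene needed a mean count of at least 20 over the 13 animals, which 13828 genes reached. Every rehydrated animal had to lie above all 8 others, which held for 910 genes (6.58% of the 13828). The mean after dehydration then had to be within 15% of control, which left 493, and the mean after rehydration had to be at least 1.6 times control, which left 60 (0.434%). The same conditions turned upside down, for genes lower after rehydration only, gave 334 genes. Genes that the study names were kept in that count, unlike for the members. It was made with this scaling only, and the number of genes that met the members' rule depended on the scaling. All differences between groups in the members' levels were used to choose them, so those differences are given as a description. The calls of a fit over all genes are given near the end beside the share of all genes called, and are no test of the members.

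The kidney filters the blood and then recovers water and salt along its tubules. When water is short, vasopressin brings water channels into the outer membrane of collecting duct cells so that the urine becomes concentrated, and when the animal drinks, that stimulus is withdrawn. Whole-kidney RNA holds the RNA of all tubule segments, vessels and resident cells together, so that more cells of a type and more RNA per cell cannot be told apart. The tissue matched its label: AQP1, a water channel of the proximal tubule and thin limb, was at 327 to 1070 CPM, AQP2, the vasopressin-regulated channel of the collecting duct, at 98.7 to 797 CPM, and SCNN1A, a subunit of the epithelial sodium channel, at 203 to 397 CPM. The count table gives Ensembl identifiers without gene names, so the members are described by identifier, position and structure on the JacJac1.0 assembly.

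Total counts per animal were 19801654 to 22949762 in controls, 18648494 to 19944214 after dehydration and 14071802 to 19267059 after rehydration. CM01 and RHM01 stood apart from the others in a list of 160 immune genes that the study drew from these same animals. The summed level of that list was 14780 CPM in CM01 and 10690 CPM in RHM01, against 1293 to 4910 CPM in the other 11. The rehydrated libraries were also weighted to shorter genes. The count-weighted mean gene length was 1773 to 1897 bases after rehydration, 1964 to 2040 in controls and 1941 to 2005 after dehydration. The difference was -162 bases from control and -126 bases from dehydration (2-sided exact permutation p = 0.0159 for each, n = 5 and 4, adjusted p = 0.0212 over 4 such tests). The study reports that RNA integrity numbers lay above a stated value in all sequenced samples and were lower in the rehydrated group. The part of gene length weighting, RNA integrity or the immune genes in the members' levels was not tested.

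**Figure D1:**
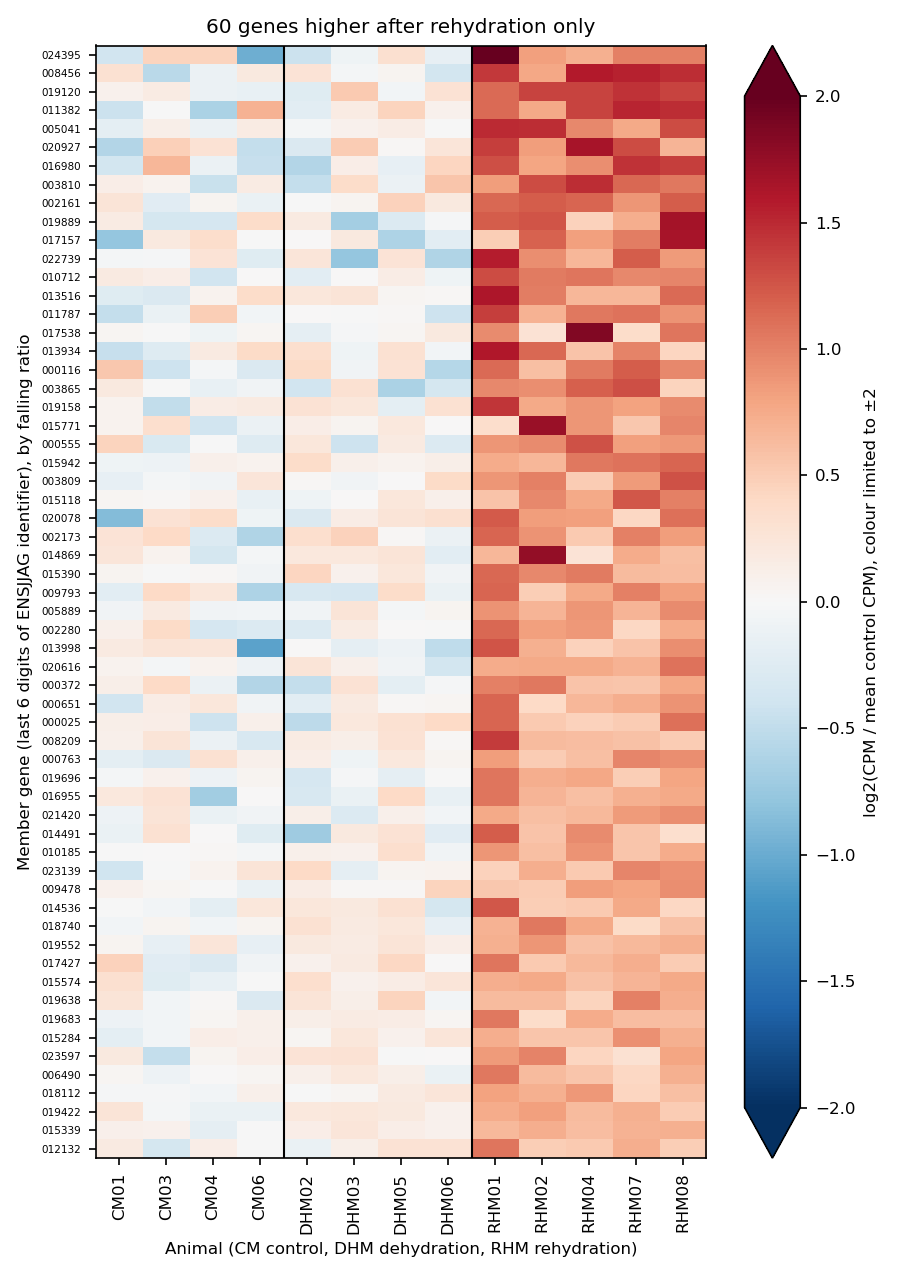
Level of each of the 60 members (rows, by falling ratio of rehydration to control) in each of the 13 animals (columns), as the log2 ratio of its CPM to the mean CPM of the controls. All 5 rehydrated columns are red in every row, and the dehydrated columns are close to the control columns because the rule required both.

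Across the 60 members the mean CPM after rehydration was 1.601 to 3.08 times control, with a median of 1.79. In 18 members it was more than 2 times control. Against dehydration the ratio was 1.42 to 3.22, with a median of 1.76. The ratio of dehydration to control was from 0.858 up to the limit set by the rule, with a median of 1.08, and 42 of the 60 were above 1. This majority depended on single animals: the fitted log2 fold change was positive in 39 of the 60, but in 30 without DHM05 and in 27 without CM01. It was positive in 36 with DESeq2 size factors and in 34 with a trend on gene length taken out. Together the members took 0.406% of all counts in controls, 0.437% after dehydration and 0.745% after rehydration.

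**Figure D2:**
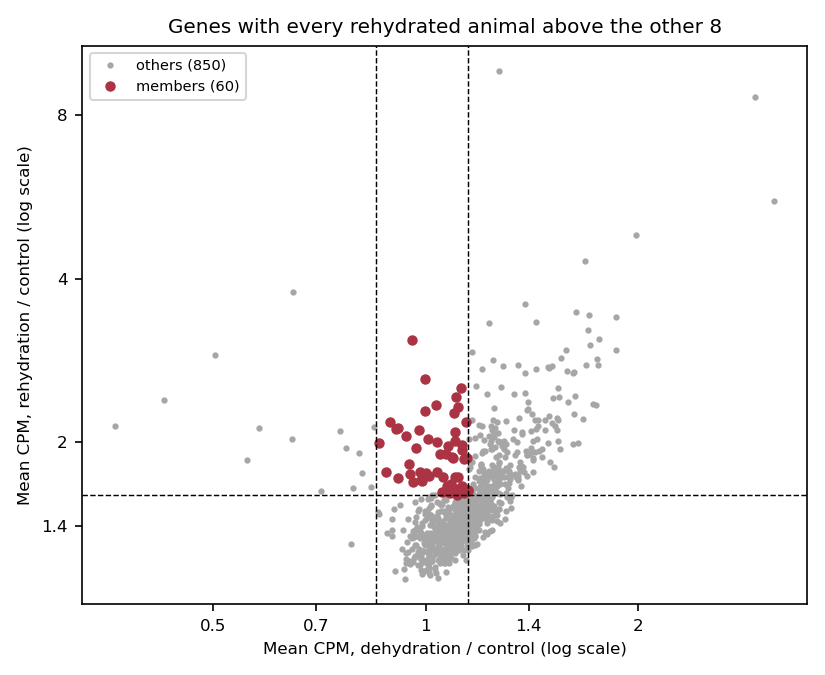
Mean CPM after rehydration (vertical) and after dehydration (horizontal), each relative to control on log scales, for the 910 genes in which every rehydrated animal was above the other 8. The 60 members (red) fill the box between the vertical dashed lines (within 15% of control) and above the horizontal line at 1.6, and the 850 others (grey) lie outside it.

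The members were mostly genes of low to moderate level. The mean after rehydration was 1.87 to 2374 CPM with a median of 22.7 CPM; 11 members were above 100 CPM and 23 were under 10 CPM. The lowest, ENSJJAG00000023597, had 19 to 29 reads in the control animals, 22 to 27 in the dehydrated animals and 20 to 44 in the rehydrated animals, so that counting error alone is large there. The standard deviation between animals was in the median 17.01% of the mean in controls, 14.5% after dehydration and 17.7% after rehydration. The gap between the groups was often small. The lowest rehydrated animal was 1.005 to 1.713 times the highest of the other 8, with a median of 1.147, and the gap exceeded 1.2 times in 19 members.

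The widest gap was in ENSJJAG00000010712 (scaffold JH725459.1, 11178156 to 11179713, plus strand, 3 exons, 924 exon bases). It stood at 76.9, 74.3, 51.8 and 68.5 CPM in CM01, CM03, CM04 and CM06 and at 58.8, 68.1, 74.8 and 64.2 CPM in DHM02, DHM03, DHM05 and DHM06. In RHM01, RHM02, RHM04, RHM07 and RHM08 it stood at 167, 140, 143, 132 and 133 CPM. The rehydrated mean of 143 ± 14.4 CPM (SD, n = 5) was 2.11 times the control mean of 67.9 ± 11.3 CPM (SD, n = 4), and the dehydrated mean was 66.5 ± 6.73 CPM (SD, n = 4). The dehydrated animals lay within the range of the controls, and the rehydrated animals lay in a narrow band far above it.

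ENSJJAG00000024395 had the largest ratio, 3.08 (scaffold JH725449.1, 31687455 to 31692004, minus strand, 3 exons, 411 exon bases). Its level was 3.04, 5.40, 5.44 and 2.02 CPM in the controls and 2.95, 3.75, 4.95 and 3.56 CPM after dehydration. After rehydration it was 31.7 CPM in RHM01 but 7.01, 6.48, 7.96 and 8.00 CPM in the other 4. Without RHM01 the ratio was 1.85, and without CM01 and RHM01 it was 1.72. The other 4 rehydrated animals were still above all controls and dehydrated animals, as the rule requires. The gene is among those the study lists under the annotation term cilium movement, the beating of the hair-like projections of cells. Of the 19 genes printed there that reached the mean count, the ratio of rehydration to control ran from 0.712 to 3.08 with a median of 1.47; that list came from a gene module built on these same animals and is not independent evidence.

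ENSJJAG00000019120 had a more even rise in level (scaffold JH725439.1, 6387277 to 6480315, plus strand, 37 exons, 4649 exon bases). It stood at 3.54, 3.75, 3.08 and 3.03 CPM in controls, 2.84, 4.84, 3.23 and 4.11 CPM after dehydration and 7.35, 8.51, 8.53, 9.17 and 8.57 CPM after rehydration. The rehydrated mean of 8.43 ± 0.659 CPM (SD, n = 5) was 2.52 times control, and no single rehydrated animal stood apart. The study lists it under monoatomic cation channel activity, a term for proteins that let ions such as sodium, potassium or calcium cross membranes. The 20 measured genes printed under that term had ratios of 1.00 to 2.52 with a median of 1.32, with the same limit as above.

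ENSJJAG00000008456 and ENSJJAG00000018112 were the only members that lay next to each other on the same strand within 5 kb. ENSJJAG00000008456 (scaffold JH725484.1, 1213276 to 1214824, minus strand, 681 exon bases) begins 2002 bases after the end of ENSJJAG00000018112 (1216827 to 1255920, minus strand, 54 exons, 8238 exon bases). The first stood at 4.31, 2.40, 3.22 and 3.99 CPM in controls, 4.18, 3.38, 3.60 and 2.71 CPM after dehydration and 9.25, 5.97, 10.4, 10.1 and 9.72 CPM after rehydration, a ratio of 2.61 to control. The second was at 150, 150, 147 and 163 CPM in controls, 151, 157, 172 and 180 CPM after dehydration and 265, 249, 277, 205 and 232 CPM after rehydration, a ratio of 1.61. The pair differed widely in CPM, with means after rehydration of 9.09 and 246 CPM. Relative to exon length the means were closer, at 13.3 and 29.8 CPM per 1000 exon bases. RHM02 was the lowest rehydrated animal for the first gene, and RHM07 for the second.

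**Figure D3:**
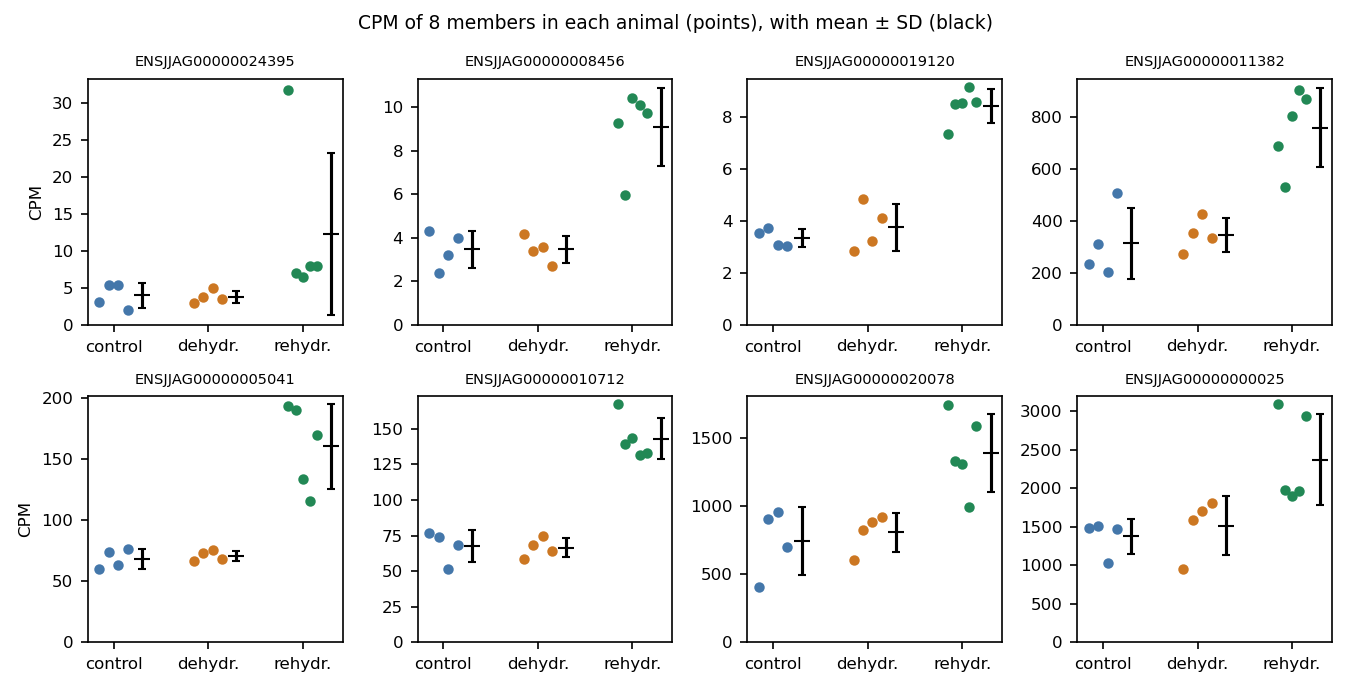
CPM of 8 members in each control, dehydrated and rehydrated animal (points), with the mean ± SD of each group in black (n = 4, 4 and 5). RHM01 lies far above the other 4 rehydrated animals in ENSJJAG00000024395, while in ENSJJAG00000019120 and ENSJJAG00000010712 the 5 rehydrated animals lie close together.

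Among members of high level, ENSJJAG00000011382 (scaffold JH725459.1, 18073609 to 18090198, minus strand, 21 exons) had the largest ratio, 2.42. Its controls were at 233, 313, 202 and 506 CPM, its dehydrated animals at 272, 352, 428 and 335 CPM and its rehydrated animals at 689, 531, 804, 903 and 871 CPM. The control animals spread widely, and RHM02 was only just above CM06. ENSJJAG00000020078 (scaffold JH725503.1, 10659802 to 10665156, minus strand, 4 exons, 507 exon bases) reached 1743, 1331, 1312, 993 and 1586 CPM after rehydration, against 407, 904, 957 and 702 CPM in controls and 605, 825, 883 and 923 CPM after dehydration. CM01 was the lowest control and RHM01 the highest rehydrated animal there, and without these 2 the ratio of 1.88 became 1.53. ENSJJAG00000015390, at 458 ± 75.2 CPM (SD, n = 5) after rehydration and 246 ± 9.72 CPM (SD, n = 4) in controls, had a ratio of 1.86. ENSJJAG00000019696 rose in level from 246 ± 14.7 CPM in controls (SD, n = 4) and 225 ± 23.5 CPM after dehydration (SD, n = 4) to 423 ± 60.5 CPM after rehydration (SD, n = 5), a ratio of 1.72.

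The member with the highest level, ENSJJAG00000000025, lies on the mitochondrial genome (9484 to 9831, plus strand, 1 exon, 348 exon bases). The mitochondrial genome codes for subunits of the respiratory chain and for the RNAs that translate them, and is copied into long transcripts that are cut into the single RNAs. The gene stood at 1485, 1514, 1033 and 1470 CPM in controls, 952, 1592, 1703 and 1806 CPM after dehydration and 3093, 1976, 1900, 1963 and 2939 CPM after rehydration. RHM01 and RHM08 were well above the other 3 rehydrated animals, which were only slightly above DHM06. It was the only one of the 37 mitochondrial genes that met the rule. Of the 14 other mitochondrial genes with at least 200 bases, 12 had a mean ratio of rehydration to control above 1, and the 14 ratios ran from 0.855 to 1.56. All mitochondrial genes together took 12.2% to 16.4% of counts after rehydration, 9.60% to 12.5% in controls and 9.41% to 10.7% after dehydration (2-sided exact permutation p = 0.0317 against control and p = 0.0159 against dehydration, n = 5 and 4, adjusted p = 0.0317 and 0.0212).

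Near the threshold of 1.6 the division was narrow. The 3 members just inside it were ENSJJAG00000012132 (ratio 1.601, 57.2 CPM in controls and 91.5 CPM after rehydration), ENSJJAG00000015339 (1.605, 53.2 and 85.4 CPM) and ENSJJAG00000019422 (1.611, 37.8 and 60.9 CPM). The 3 genes just outside were ENSJJAG00000009583 (1.5995, 96.1 and 153.7 CPM), ENSJJAG00000022156 (1.597, 26.6 and 42.5 CPM) and ENSJJAG00000014532 (1.597, 10.2 and 16.4 CPM).

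RHM01 was the highest rehydrated animal in 25 of the 60 members, RHM07 in 10, RHM02 and RHM08 in 9 each and RHM04 in 7. The level of RHM01 was above the mean of its group in 71.7% of the members on the log2(CPM + 1) scale. The rule used the rehydrated mean, which 1 high animal raises, and no such share over all genes is given here. These counts are therefore a description and no trait particular to the members. Without CM01 and RHM01 the ratios of rehydration to control ran from 1.47 to 2.83 with a median of 1.74, and 10 of the 60 were under 1.6. The ratio was larger without these 2 animals in 24 members. Some members had another extreme animal. ENSJJAG00000014869 was at 69.0 CPM in RHM02 and 24.7 to 34.0 CPM in the other rehydrated animals, and ENSJJAG00000017538 was at 4.6 CPM in RHM04 and 1.56 to 2.69 CPM in the others.

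Within the groups the members hardly moved together. After each animal's value was taken relative to the mean of its group on the log2(CPM + 1) scale, the median Pearson correlation over the 1770 pairs of members was 0.0496 over the 13 animals, against -0.0166 between members and the 13768 other genes. Without CM01 and RHM01 it was 0.0214. These points share their libraries and depths, and the correlations are a description.

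What the rule did not use was the structure and position of the genes. Members had a median of 1145 exon bases and 6.5 exons, against 1349 exon bases and 8 exons over all 13828 genes with the required mean count. Genes of fewer than 300 exon bases made up 5 of the 60 members (8.33%) and 3.88% of all. The shortest were ENSJJAG00000003809 with 88 bases and ENSJJAG00000003865 with 96 bases, of which 79 are shared with another gene, so that its reads cannot be assigned with certainty. The members lay on 43 scaffolds, 12 of which held more than 1, and no member lay inside the span of another gene, against 2.53% of all genes. A gene on the same strand ended within 5 kb upstream of 12 members (20%), against 8.03% of all genes. Of the 12 upstream genes, 1 is itself a member, ENSJJAG00000018112. The 11 others had ratios of rehydration to control of 0.846 to 1.54 with a median of 1.28, where all 13828 genes had a median of 1.02. An example is ENSJJAG00000016980 (ratio 2.28), 1351 bases after a gene with a ratio of 1.304. Whether reads of an upstream gene ran on into a member was not tested.

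**Figure D4:**
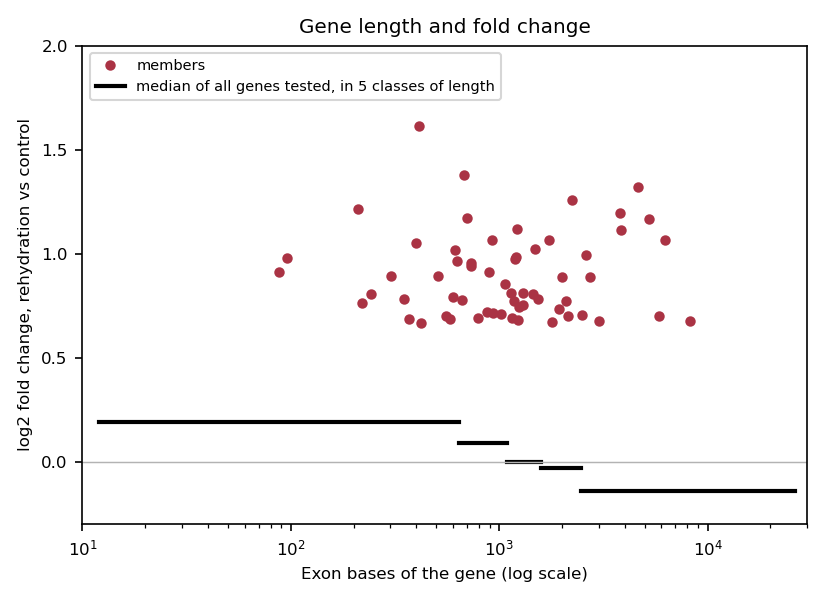
Fitted log2 fold change of rehydration against control (vertical) of each member (points) by its exon bases (horizontal, log scale), with the median of all genes tested in each of 5 equal classes of gene length (black lines). The medians fall from 0.19 in the shortest class to -0.14 in the longest. The members lie above them at all lengths because the rule required a ratio of at least 1.6.

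The fold changes of all genes depended on gene length. From the shortest to the longest of 5 equal classes of the 15064 genes tested, the median log2 fold change of rehydration against control was 0.19, 0.09, 0.00, -0.03 and -0.14 (edgeR fit). The classes held 17, 12, 13, 7 and 11 members. When a smooth trend on gene length was taken out of each library, the median log2 fold change of the 17 shortest members was 0.65 in place of 0.89, and that of the 11 longest was 1.11 in place of 0.99.

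In the edgeR quasi-likelihood fit over 15064 genes (mean count 8 or more), 52 of the 60 members were called higher after rehydration than in control at an adjusted p under 0.01, where 12.5% of all genes tested were called higher, 16.2% lower and 28.8% in either direction. Against dehydration, 35 of the 60 were called higher, where 2.68% of all genes were called higher, 5.5% lower and 8.19% in either direction. ENSJJAG00000024395, of the largest ratio, was called in neither comparison (edgeR adjusted p = 0.0181 against control and 0.0256 against dehydration). Nor were ENSJJAG00000020078 (0.0109 and 0.0311) and ENSJJAG00000000025 (0.0126 and 0.0411), both of high level. ENSJJAG00000017538 and ENSJJAG00000023597 were also called in neither. With the animal number as a block, 12 members and 987 genes were called against control, and 0 members and 0 genes against dehydration. Only 5 pairs of animals shared a number between groups, and only DHM02 and RHM02 joined dehydration and rehydration. The block fit therefore had little left to estimate the spread from. The members' median log2 fold change against dehydration was 0.86 with the block and 0.85 without it. Without DHM02, 17 members and 380 genes were called against dehydration. Between dehydration and control, none of the 60 was called, with edgeR or with DESeq2, and none had an unadjusted p under 0.05 in either, where edgeR called 0.478% of all genes (0.312% higher and 0.166% lower) and DESeq2 6.36%. The balance of those calls turned with the method, from 47 higher and 25 lower with edgeR to 420 higher and 538 lower with DESeq2. Nothing is read from these counts, since the members were chosen on the same contrasts and both rehydration contrasts share the rehydrated animals. Over all genes the calls were 1887 higher and 2444 lower against control, and 404 higher and 829 lower against dehydration. With the length trend taken out, the latter were 533 higher and 611 lower. The members' log2 fold changes were 0.67 to 1.61 with a median of 0.83 against control, where the median of all genes was 0.03.

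**Figure D5:**
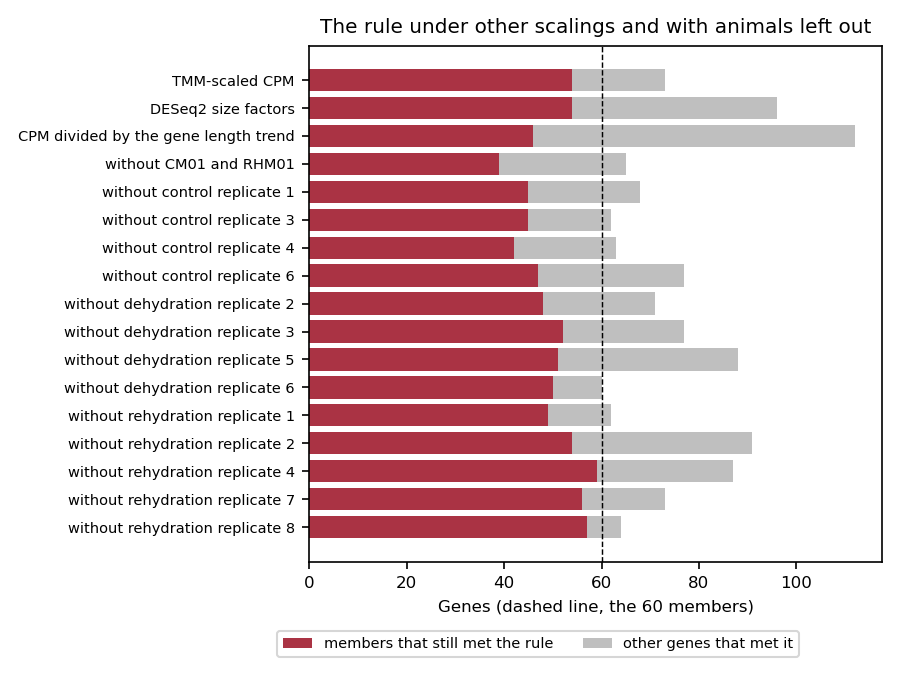
Number of genes that met the rule under other scalings, with a length trend taken out, and with 1 or 2 animals left out, split into the members (red) and other genes (grey). Between 39 and 59 of the 60 members (dashed line) still met it, and other genes entered each time.

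Which genes met the rule depended on the scaling and on single animals. With TMM scaling 54 of the 60 members met it and 19 other genes joined them, and with DESeq2 size factors 54 met it and 42 joined. With CPM divided by the length trend 46 met it and 66 joined. Leaving out 1 animal kept between 42 (without CM04) and 59 (without RHM04) members, and 16 members met the rule whichever animal was left out. Those 16 include ENSJJAG00000008456, ENSJJAG00000005041, ENSJJAG00000010712 and ENSJJAG00000019696. ENSJJAG00000005041, a short gene (scaffold JH725677.1, 319580 to 333292, plus strand, 2 exons, 210 exon bases), was at 60.1, 74.4, 63.5 and 76.8 CPM in controls, 67.1, 73.1, 75.9 and 68.4 CPM after dehydration and 193, 191, 134, 116 and 170 CPM after rehydration. Its rehydrated animals spread over a wide range, all of it above the narrow range of the other 8.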

How the data were processed

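The authors selected poly-A RNA, sequenced 75 bp paired-end reads, trimmed them with BBDuk, aligned them to JacJac1.0 with Rsubread and counted fragments per Ensembl 99 gene with featureCounts v1.6.2, per the methods and the file header; the deposited values are raw counts per gene, with exon length (bases) as a further column. Counting did not use strand, and overlapping genes or near-identical copies may share reads. Of the 15 count columns, 2 matched no labelled sample and were not used.

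Counts were scaled to CPM by the column sum. Groups were compared with edgeR 4.0.16 (R 4.3.3; quasi-likelihood test, TMM, mean count at least 8, all 3 groups in 1 fit, Benjamini-Hochberg over all genes, adjusted p under 0.01). DESeq2 1.42.0, other scalings, filters, group subsets, the animal number as a block, a length offset (lowess span 0.3) and leaving out animals were alternatives. In simulated counts for rehydration against control with 15010 genes, 41 of 100 genes changed 2-fold and 100 of 100 changed 4-fold were called. The simulation gave all genes the same spread (dispersion 0.07) and changed no other genes. These shares therefore do not measure how many real changes the fit finds in these data. Animals of 1 group differed by more than counting noise in every pair. Correlations of deviations between animals of equal number were -0.0157 to 0.338, with a mean of 0.119, against a mean of -0.0107 over 51 other pairs between groups. The highest was that of CM01 with RHM01, both high in the immune list. The labels name no pairs and these values do not settle the question. The numbers were not taken as pairs in the main fit.

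The members and lists were chosen with earlier results of these data known. The methods and supplement pair symbols with a few identifiers, none of them a member, and no identifier matched the reference table of the mJacJac1 assembly, so gene lists, cell type markers and promoter motifs written by symbol, and the symbol part of the rule for named genes (highest level, largest ratio), could not be applied; identifiers were named by the same ranks, with the genes nearest the threshold. Others were chosen after their values were seen: the 2 with an annotation term, the neighbouring pair, the widest gap, the lowest, the shortest, those with 1 extreme animal and 1 with an upstream gene. No sequence is shown because none could be matched.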

Additional observations from a re-analysis of the deposited data

Results flagged for a closer look

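In 8 of the 87 sets of values examined (29 genes in 3 groups: those of highest level or largest ratio, those nearest the threshold and the others named above for their values), 1 animal lay far from the rest of its group by Dixon's criterion, which chance alone meets in about 1 set in 20. Some of these genes were named because 1 animal was extreme, so the number of such sets cannot be read against that rate. ENSJJAG00000024395 was at 31.7 CPM in RHM01, against 8 CPM in the next rehydrated animal. ENSJJAG00000000025 was at 1033 CPM in CM04, against 1470 CPM in the next control. ENSJJAG00000008456 was at 5.97 CPM in RHM02, against 9.25 CPM in the next rehydrated animal. ENSJJAG00000002161 was at 6.75 CPM in RHM07, against 8.09 CPM in the next. After dehydration, DHM06 was low for ENSJJAG00000011787 (53.4 CPM, next 70.7 CPM) and for ENSJJAG00000019422 (40.3 CPM, next 43.5 CPM). ENSJJAG00000014869 was at 69 CPM in RHM02, next 34 CPM, and after dehydration at 17.6 CPM in DHM06, next 23.6 CPM. The causes of these values were not tested.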

How the results depend on the processing

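The sign of the members' fold changes in both rehydration comparisons was fixed by the rule, and their median against control was 0.83 on the log2 scale and 0.90 with the replicate block. Against control, 987 genes and 12 members were called with the animal number as a replicate block, 3257 and 34 with only the 2 groups compared, 3358 and 34 without CM01 and RHM01, and 6563 genes at an adjusted p under 0.05; leaving out 1 animal gave 3334 to 4491 genes and 35 to 47 members. Against dehydration, DESeq2 called 2785 genes and 56 members, the fit of 2 groups 313 and 21, the replicate block 0 and 0 (2823 genes and 46 members at an unadjusted p under 0.05), and the threshold of 0.05 gave 3614 and 59. The block fits had little left to estimate the spread from, since only 5 pairs of animals shared a number. Leaving out 1 animal there gave 380 to 2005 genes and 17 to 35 members, with 380 and 17 without DHM02, 525 and 18 without DHM03, 467 and 20 without DHM05, 420 and 20 without DHM06, 627 and 23 without RHM07, and 407 and 19 without RHM08; the calls over all genes also moved without RHM02 (2005) and RHM04 (717). Of dehydration against control, 72 genes were called, with 958 by DESeq2, 157 in the fit of 2 groups (42 higher, 115 lower), 0 with the replicate block (3110 at an unadjusted p under 0.05), 141 without CM01 and RHM01, 111 with the length offset, 894 at 0.05, and 1 (without CM06) to 235 (without RHM01) with 1 animal left out; no member was called in any of these. The rule itself gave 96 genes with DESeq2 size factors, 112 with the length trend taken out and 60 to 91 (without RHM02) with 1 animal left out. The causes of these shifts were not tested. Of 10 animals with a number shared between groups, 6 correlated best with their own number, a hint from the data only. Of 1276 refitted fold changes of named genes, 1080 kept their side of the threshold, 161 lost and 35 gained significance. Members under 10 CPM rest on fewer reads than the other members, and the part of depth in their values was not tested.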
